A study of Mus musculus with 12 samples.

Results

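Metallothioneins are small cysteine-rich proteins that hold zinc and copper, and the zinc transporters move zinc between the outside of the cell, the cytosol and the organelles. The genes described here are 10 in number out of 30142 named genes on the array: the metallothioneins Mt1 and Mt2, the zinc sensor Mtf1, the exporters Slc30a1, Slc30a5 and Slc30a7, and the importers Slc39a6, Slc39a7, Slc39a10 and Slc39a14. Each was taken from a probe set that the array's annotation gives exactly 1 gene symbol, and each of the 10 had 1 such probe set. All 10 passed the filter on low values and were among the 24265 genes tested.

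RNA came from mouse megakaryocytes, the large marrow cells that shed platelets, grown from bone marrow stem cells of male C57BL/6 animals. The cultures had 3 days of thrombopoietin at 100 ng per ml, then a night in medium with 10% charcoal-stripped serum, which is depleted of steroids, and were purified on day 4 by sedimentation through albumin at 0, 1.5 and 3%. Each of 6 cultures was then divided, so that 6 arrays hold cells kept with vehicle and 6 hold cells kept with 100 nM dexamethasone, a synthetic glucocorticoid, both for 6 h. Cultures 1 to 6 here are the replicate numbers of the labels, which both groups share and which stand for the cultures numbered 1, 4, 5, 6, 7 and 8 in the sample descriptions. No source used here says how many mice they came from, so the p-values of a change rest on how it varied between these cultures.

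Zinc that enters the cytosol is bound by metallothioneins, pumped out by transporters of the SLC30 (ZnT) family, or moved into organelles. Transporters of the SLC39 (ZIP) family bring zinc into the cytosol from outside the cell or from organelles. MTF1, a zinc finger transcription factor, binds metal response elements when cytosolic zinc rises and drives Mt1, Mt2 and Slc30a1. The glucocorticoid receptor also drives Mt1 and Mt2 in many tissues, and platelets are known to store and release zinc.

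The promoters of Mt2, Mt1 and Slc30a1 are shown because MTF1 is known to act on these genes, of which the metallothioneins rose and Slc30a1 did not pass the test. The sequences are from RefSeq on build GRCm38.p6 and are the 250 bases before the start that the table uses for each gene, 5′ to 3′ on the plus strand. Mt1 has more than 1 annotated start, since its entry in the RefSeq gene table begins before the start used here. Which start these cells use was not measured, so the bases printed for Mt1 may not be those nearest to it. Whether transcripts also begin after the start used here could not be checked. If they do, the cores counted as after the start may lie before theirs. Capitals mark the metal response element core, searched as TGCACNC or TGCGCNC on both strands.
Mt2, chr8:94172368-94172617: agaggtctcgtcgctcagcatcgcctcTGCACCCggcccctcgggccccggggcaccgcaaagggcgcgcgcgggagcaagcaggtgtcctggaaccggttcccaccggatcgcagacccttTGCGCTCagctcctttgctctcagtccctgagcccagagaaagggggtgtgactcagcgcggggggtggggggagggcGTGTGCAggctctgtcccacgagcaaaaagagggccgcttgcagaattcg
Mt1, chr8:94178839-94179088: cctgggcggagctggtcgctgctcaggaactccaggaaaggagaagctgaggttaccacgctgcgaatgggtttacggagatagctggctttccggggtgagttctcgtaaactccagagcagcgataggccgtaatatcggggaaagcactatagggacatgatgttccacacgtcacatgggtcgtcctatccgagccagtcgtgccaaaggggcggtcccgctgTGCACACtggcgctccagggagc
Slc30a1, chr1:191906531-191906780: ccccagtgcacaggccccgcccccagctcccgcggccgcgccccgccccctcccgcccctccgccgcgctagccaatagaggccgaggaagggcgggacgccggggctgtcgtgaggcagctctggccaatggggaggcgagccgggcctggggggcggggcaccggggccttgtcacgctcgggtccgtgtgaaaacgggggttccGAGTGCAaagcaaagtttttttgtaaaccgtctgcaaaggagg

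With the 50 bases after the start included, the window of Mt2 held 4 copies of the core, that of Mt1 held 3 and that of Slc30a1 held 2. Of 32851 such windows of 300 bases in the table, 25.7% held at least 1 copy, 7.11% at least 2, 1.97% at least 3 and 0.517% at least 4. Of the other members searched, Slc30a5 had 1 copy, and Mtf1, Slc30a7, Slc39a7 and both windows of Slc39a10 had none. Slc39a6 and Slc39a14 were not searched. A relaxed core of the glucocorticoid response element, ACANNNTGT, which reads the same on both strands, was found once in the windows of Mt1 and Slc30a5 and not in that of Mt2, against 6.85% of all windows. These are matches of letters in short windows, and binding was not measured. Sequence outside the windows was not searched, so a missing match does not show that a gene lacks a site.

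Mt2 and Mt1 rose in all 6 cultures, Mt2 by 4.27-fold and Mt1 by 2.70-fold. Mtf1 rose 1.41-fold. The importer Slc39a6 fell 1.54-fold, the exporter Slc30a5 fell 1.27-fold and the importer Slc39a10 fell 1.15-fold. Slc30a1, Slc30a7, Slc39a7 and Slc39a14 did not pass the threshold, an adjusted p under 0.05 from limma with culture as a block. In all, 3 of the 10 members rose and 3 fell, 60% in all, where 12% of all tested genes passed the threshold, 7.39% higher and 4.56% lower. In 5 members the groups did not overlap, 3 higher and 2 lower, against 6.73% of all tested genes, 4.1% higher and 2.63% lower. In 7 members all 6 cultures moved the same way, against 19.5% of tested genes. The members were chosen with earlier results of these data known, so the contrast between those shares is not evidence about zinc handling as a whole. In bulk RNA, a change in the cells that hold a transcript and a change in the RNA per cell cannot be told apart.

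Values are the deposited log2 values, so that 1 unit is a 2-fold difference. In vehicle, Mt2 ran from 15.05 to 15.50 with a median of 15.16. In dexamethasone it ran from 17.08 to 17.44 with a median of 17.31. The groups did not overlap, and the lowest dexamethasone culture stood far above the highest vehicle culture. The mean rose from 15.20 ± 0.16 to 17.29 ± 0.12 (SD, n = 6), a change of 2.09 (SE 0.05, adjusted p = 7.49e-08), with single cultures between 1.94 and 2.27. Of all tested genes, 27 including Mt2, or 0.111%, rose by at least this much and passed the threshold.

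Mt1 ran from 14.35 to 14.75 in vehicle, with a median of 14.61. It ran from 15.82 to 16.09 in dexamethasone, with a median of 16.02. These groups did not overlap either. The mean rose from 14.56 ± 0.16 to 15.99 ± 0.10 (SD, n = 6), a change of 1.43 (SE 0.06, adjusted p = 1.66e-06), and 64 genes including Mt1, or 0.264% of those tested, rose at least as far and passed. Both metallothioneins lay above the 95th percentile of the negative control probe sets, which was 9.98 to 10.39 over the arrays, on all 12 arrays, and both stayed below the highest values of an array, 19.82 to 19.93. Whether values this high are compressed was not tested.

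**Figure D1:**
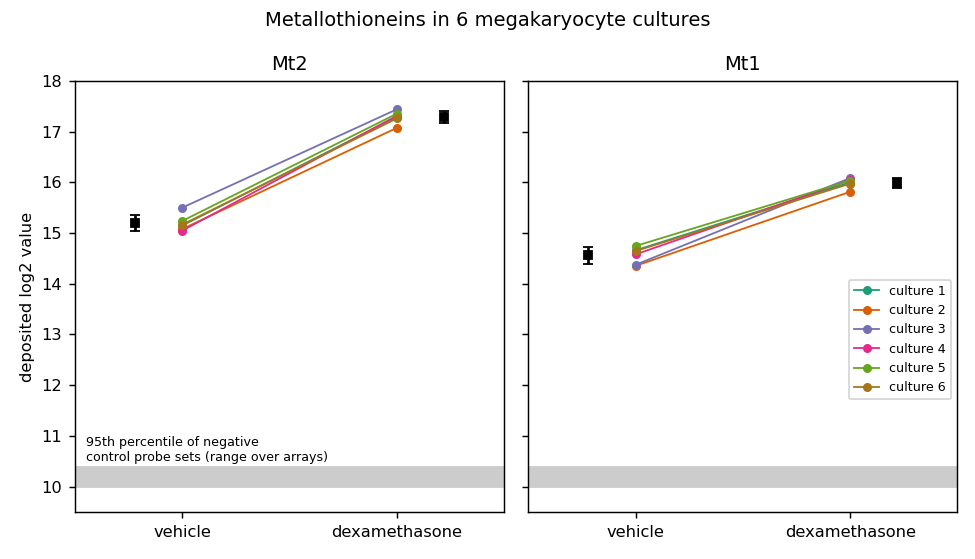
Deposited log2 values of Mt2 (left) and Mt1 (right) in each of 6 cultures, with a line joining the vehicle and dexamethasone arrays of a culture, black squares and bars for the mean and SD, and a grey band for the range over arrays of the 95th percentile of negative control probe sets; the axis starts at 9.5. Every line rises, from about 15.20 to 17.29 for Mt2 and from 14.56 to 15.99 for Mt1, and no vehicle value reaches a dexamethasone value.

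The genes lie next to each other, and their responses were compared within cultures. The change of Mt2 exceeded that of Mt1 in 6 of 6 cultures, by 0.66 ± 0.24 (SD, n = 6) on the log2 scale, with a range from 0.23 to 0.83. An exact permutation test that flips the sign of each culture's difference gave a two-sided p of 0.0312, the smallest that 6 pairs allow. Culture 3 had the smallest gap: its Mt1 rose most of all cultures, by 1.71, and its Mt2 rose least, by 1.94. In vehicle the same culture had the highest Mt2, 15.50, and the next to lowest Mt1, 14.38. The probe sequences were not used here, so whether the probe set of either gene also takes up RNA of the other was not tested.

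Across the 6 cultures, vehicle levels of Mt1 and Mt2 had a Pearson r of -0.26 (exact permutation p = 0.669) and a Spearman rho of 0.26 (exact permutation p = 0.658). Their changes had an r of -0.54 (exact permutation p = 0.292) and a rho of -0.26 (exact permutation p = 0.658). Adjusted over these 2 relations, the p-values of r were 0.669 and 0.583, and both of rho were 0.658. Without cultures 2 and 3, the farthest from the median of vehicle Mt1, the r of vehicle levels was 0.97 over 4 cultures. Without cultures 3 and 5, the r of the changes was 0.09. No relation between the genes from culture to culture passed the threshold.

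No rise was seen for the other genes of the cluster, which lay near or under the negative control median. Mt3, the form best known from brain, was 6.18 ± 0.12 in vehicle and 6.13 ± 0.15 in dexamethasone (SD, n = 6), a change of -0.05 with a 95% interval from -0.16 to 0.07 and an adjusted p of 0.599. It lay above the negative control median on 2 of 6 arrays in each group. Mt4, known from stratified epithelia, was 4.70 ± 0.13 and 4.75 ± 0.08 (SD, n = 6), under that median on each of the 12 arrays, and failed the filter on low values.

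The 8 nearest named protein-coding genes on each side of the cluster were examined next, in the order of the RefSeq table. Of these 16, 14 matched a probe set with 1 symbol, 13 were tested, 2 rose and none fell, although 1 (Nup93) was lower at an unadjusted limma p under 0.05. The share that passed, 15.4%, is close to the 12% of all tested genes. Cpne2, which encodes the calcium-dependent membrane-binding protein copine 2, ran from 10.52 to 10.86 in vehicle and from 11.10 to 11.56 in dexamethasone, without overlap. It rose by 0.70 (SE 0.05, adjusted p = 6.73e-05), in 6 of 6 cultures. Herpud1, a factor of protein degradation at the endoplasmic reticulum, rose by 0.31 (SE 0.06, adjusted p = 0.00837), also in 6 of 6 cultures and without overlap. The genes that border the cluster, Bbs2 on the side of Mt4 and Nup93 on the side of Mt1, changed by -0.02 (95% interval -0.19 to 0.15) and -0.13 (-0.25 to -0.02), with adjusted p of 0.894 and 0.132.

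**Figure D2:**
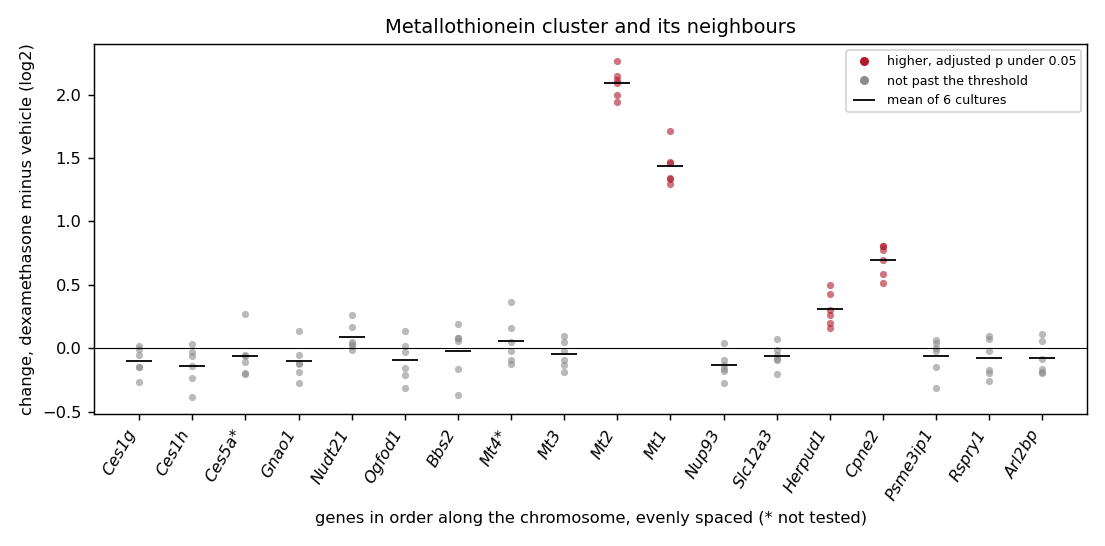
Change of each gene, dexamethasone minus vehicle on the log2 scale, in the 6 cultures (points) with the mean (bar), for the metallothionein cluster and the neighbours that have a value, placed evenly in chromosomal order. Mt2 at 2.09 and Mt1 at 1.43 stand above flanking genes near 0, and beyond Nup93 and Slc12a3 lie the rises of Herpud1 at 0.31 and Cpne2 at 0.70.

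Mtf1, the factor that senses zinc, ran from 8.89 to 9.08 in vehicle with a median of 8.94, and from 9.33 to 9.60 in dexamethasone with a median of 9.46. The groups did not overlap. The mean went from 8.96 ± 0.07 to 9.46 ± 0.09 (SD, n = 6), a rise of 0.50 (SE 0.05, adjusted p = 0.000192) seen in 6 of 6 cultures. All 12 arrays lay above the negative control median, which was 6.15 to 6.39, and none reached the 95th percentile of the negative controls.

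Slc30a1 encodes ZnT1, the zinc exporter of the plasma membrane. It ran from 10.62 to 11.11 in vehicle with a median of 10.75, and from 10.27 to 11.07 in dexamethasone with a median of 10.72. The groups overlapped, with 4 cultures lower and 2 higher in dexamethasone. The change was -0.09, with a 95% interval from -0.25 to 0.08 and an adjusted p of 0.483. The whole interval lies below the rises of Mt1, Mt2 and Mtf1. Culture 3 had the highest Slc30a1 in both groups, 11.11 and 11.07.

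Slc30a5 and Slc30a7 encode ZnT5 and ZnT7, which load zinc into the early secretory pathway, where enzymes such as alkaline phosphatases receive it. Slc30a5 ran from 9.73 to 10.03 in vehicle with a median of 9.82, and from 9.38 to 9.64 in dexamethasone with a median of 9.51. Every dexamethasone value lay below every vehicle value. The fall was by 0.34 on the log2 scale (SE 0.05, adjusted p = 0.00403), in 6 of 6 cultures, from 9.86 ± 0.12 to 9.51 ± 0.10 (SD, n = 6). Slc30a7 ran from 8.56 to 8.86 in vehicle and from 8.68 to 8.81 in dexamethasone, so the groups overlapped. Its change was 0.04 with a 95% interval from -0.08 to 0.16 and an adjusted p of 0.685, with 3 cultures higher and 3 lower. Slc30a6, whose product ZnT6 pairs with ZnT5, was 8.11 ± 0.12 and 8.12 ± 0.14 (SD, n = 6), with an adjusted p of 0.964.

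Slc39a6 and Slc39a10 encode ZIP6 and ZIP10, related importers that can act as a pair at the cell surface. Slc39a6 ran from 9.69 to 9.90 in vehicle with a median of 9.80, and from 9.09 to 9.37 in dexamethasone with a median of 9.15. The groups did not overlap. It fell by 0.62 (SE 0.06, adjusted p = 0.000227) in 6 of 6 cultures, from 9.80 ± 0.08 to 9.17 ± 0.10 (SD, n = 6), and 57 genes including Slc39a6, or 0.235% of those tested, fell at least as far and passed. Culture 4 fell least, by 0.36, and culture 1 most, by 0.80. Slc39a6, Slc39a10 and Slc30a5 lay above the negative control median on all 12 arrays. None of them reached the 95th percentile of the negative controls on any array. The same held for Slc30a7 and Slc39a7.

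Slc39a10 ran from 7.80 to 8.24 in vehicle with a median of 7.95, and from 7.72 to 7.87 in dexamethasone with a median of 7.74. The groups overlapped, although each culture was lower in dexamethasone than in its own vehicle. The fall was by 0.21 (SE 0.05, adjusted p = 0.0392). The call was lost under 9 of 16 other settings, among them centring on array medians (adjusted p = 0.0971), no block for culture (0.0824) and leaving out any culture other than culture 2 (0.0530 to 0.0988), with adjusted p from 0.0112 to 0.144 over the 16 and a change that stayed between -0.26 and -0.17.

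Slc39a7 encodes ZIP7, which releases zinc from the endoplasmic reticulum. It ran from 8.65 to 9.04 in vehicle with a median of 8.81, and from 8.58 to 8.76 in dexamethasone with a median of 8.70. Each of the 6 cultures was lower in dexamethasone, yet the groups overlapped. The change was -0.15 (95% interval -0.26 to -0.05) with an adjusted p of 0.0684. It passed the threshold in 3 of 16 other settings, quantile normalization (-0.21, adjusted p = 0.00706) and the filters at the 50th percentile (0.0453) and at the negative control median (0.0352).

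Slc39a14 encodes ZIP14, a carrier of zinc, iron and manganese. Its probe set lay between 5.00 and 5.26 over the 12 arrays, under the negative control median of each, and the change was -0.09 (95% interval -0.20 to 0.02) with an adjusted p of 0.286. A response of a gene this dim may not show on the array.

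**Figure D3:**
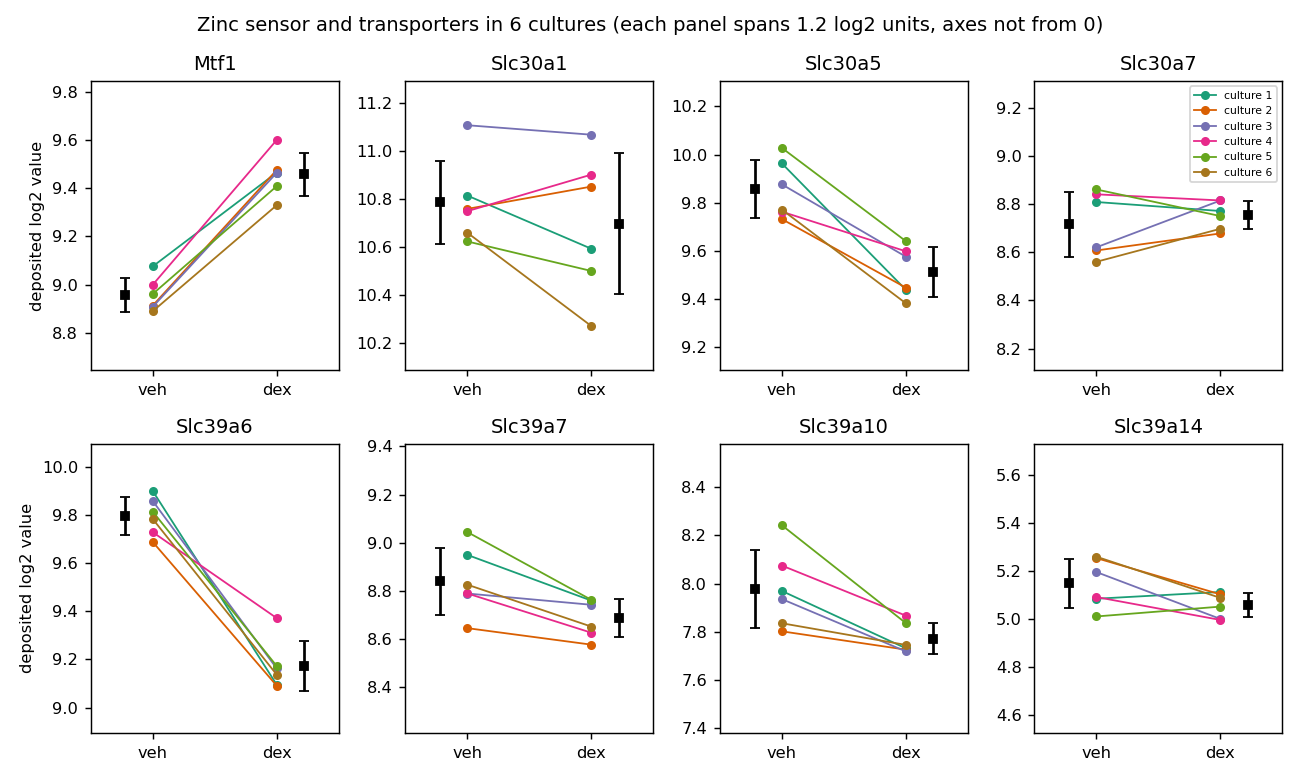
Deposited log2 values of Mtf1 and the 7 transporters in each culture (veh, vehicle; dex, dexamethasone), with black squares and bars for the mean and SD; panels share a span of 1.2 log2 units and differ in their starting value. Mtf1 rises in every culture, Slc30a5 and Slc39a6 fall without overlap, Slc39a10 falls with overlap, Slc39a7 (adjusted p = 0.0684) is lower in each culture without passing the threshold, and Slc30a1 and Slc30a7 go both ways.

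The 10 members were set beside a list of 32 zinc handling genes that holds them. All 32 matched a probe set, 29 were tested, 3 rose, 4 fell and 22 did not pass. The 3 that rose were Mt1, Mt2 and Mtf1, and of the 4 that fell only Cbwd1 is not a member. Among the 19 tested genes of the list outside the 10 members, 1 passed, a share of 5.26% against 12% of all tested genes. The median change of the 29 was -0.03 and that of all tested genes was -0.01.

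Cbwd1, from a family of zinc-binding GTPases that deliver zinc to other proteins, ran from 9.31 to 9.45 in vehicle and from 9.07 to 9.22 in dexamethasone. The groups did not overlap, and it fell by 0.21 (SE 0.04, adjusted p = 0.0109) in 6 of 6 cultures. Gpr39, a receptor for extracellular zinc, changed by -0.02 (adjusted p = 0.901).

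Of 11 exporter genes, the SLC30 family and Tmem163, 10 were tested, Slc30a5 fell and 9 did not pass. Thus 10% passed, all lower, against 12% of all tested genes and 4.56% lower. Of the 11, 5 never rose above the negative control median. Slc30a9 changed by -0.03 (95% interval -0.16 to 0.09) and Tmem163 by 0.00 (-0.11 to 0.12). Of 14 importer genes, 13 were tested, Slc39a6 and Slc39a10 fell and 11 did not pass. The share that passed, 15.4%, is close to the 12% of all tested genes. Of the 14, 5 never rose above the negative control median. Slc39a4, which brings dietary zinc into the gut wall, was well above it at 11.67 ± 0.17 and 11.57 ± 0.15 (SD, n = 6), with a change of -0.10 (95% interval -0.29 to 0.09, adjusted p = 0.492). No gene of either transporter family rose past the threshold in limma. At an unadjusted p under 0.05, 0 exporters and 2 importers (Slc39a1 and Slc39a3) were higher.

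**Figure D4:**
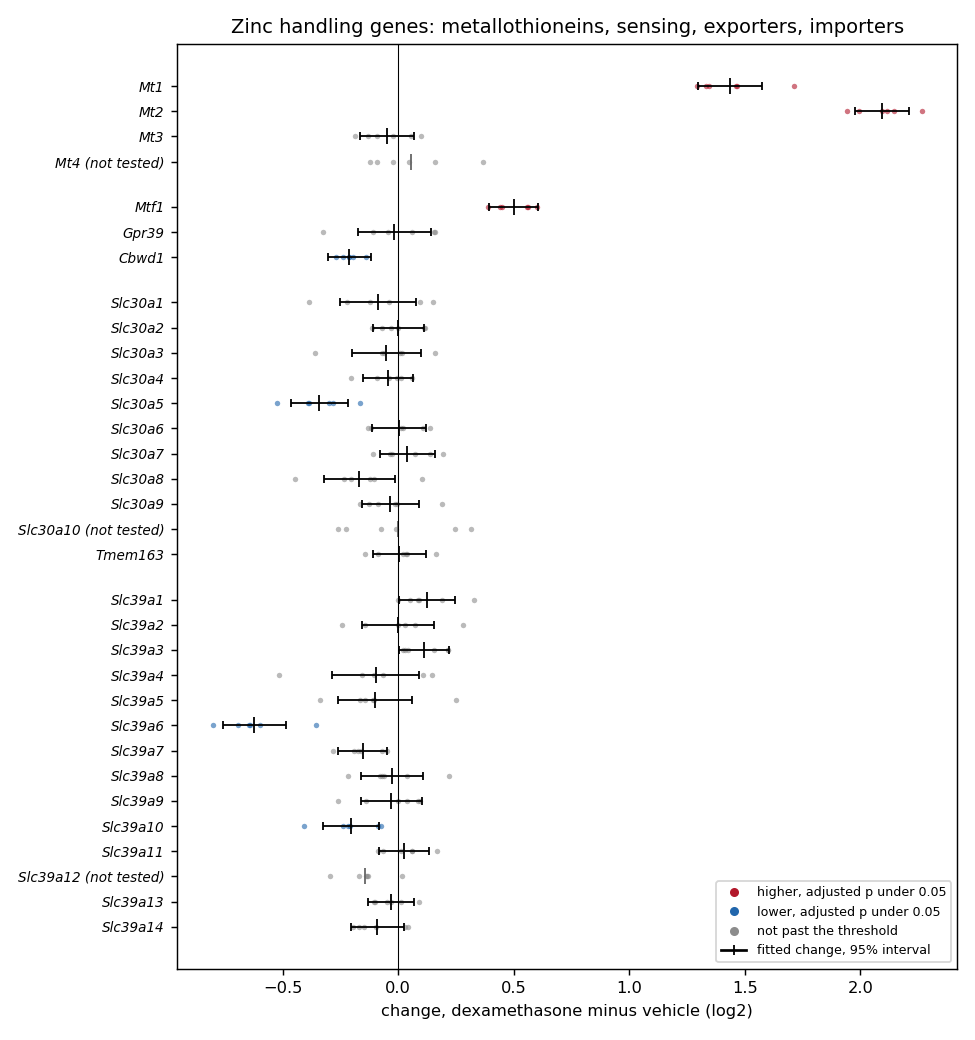
Change of 32 zinc handling genes, dexamethasone minus vehicle on the log2 scale, with 1 point per culture and the fitted change with its 95% interval for the 29 tested genes, in blocks for metallothioneins, sensing and chaperoning, exporters and importers. Mt2, Mt1 and Mtf1 lie to the right of 0, Slc39a6, Slc30a5, Cbwd1 and Slc39a10 to the left, and the intervals of most other genes cross 0.

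Of 8 genes reported to depend on MTF1, 3 rose, Slc39a10 fell and 4 did not pass, a share past the threshold of 50% against 12% of all tested genes. Their median change was 0.14 against -0.01. A direction of dependence on MTF1 is given here only for Mt1, Mt2 and Slc30a1, which it drives. The share counts a rise and a fall alike, so it does not measure a response in the driven direction. The list holds Mt1, Mt2, Slc30a1 and Slc39a10, members chosen with results known, so its count is not independent of theirs. Besides the metallothioneins, the rise was that of Gclc, the catalytic subunit of the enzyme that limits glutathione synthesis. Gclc ran from 10.36 to 11.05 in vehicle and from 12.39 to 13.21 in dexamethasone, without overlap, a rise of 2.12 (SE 0.08, adjusted p = 8.30e-07) or 4.35-fold. Slc30a1, Ndrg1, a stress-responsive gene (-0.09, 95% interval -0.21 to 0.03), and Csrp1, a LIM domain protein gene (0.05, -0.06 to 0.16), did not pass. The selenoprotein gene Selenow was higher by 0.24 (95% interval 0.07 to 0.41) in 6 of 6 cultures (adjusted p = 0.0753).

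Of 11 genes of the metal and oxidative stress response, 9 matched and 8 were tested. Gclc rose, the thioredoxin reductase gene Txnrd1 fell by 0.25 (SE 0.06, adjusted p = 0.0281) with overlapping groups, and 6 did not pass, so that 25% passed against 12% of all tested genes. Their median change was 0.08. The list was chosen with earlier results of these data known, so the contrast of shares is not evidence about this response as a whole. The fall of Txnrd1 lost its call under 9 of 16 other settings, with adjusted p from 0.00704 to 0.113. Hmox1, the heme oxygenase gene that metals and oxidants induce, was 6.26 ± 0.15 and 6.38 ± 0.16 (SD, n = 6), near the negative control median, and its adjusted p was 0.282.

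Of 10 copper handling genes, 9 matched and were tested, 2 rose and 7 did not pass, so that 22.2% passed, all higher, against 12% of all tested genes and 7.39% higher. Their median change was 0.04. This list too was chosen with earlier results of these data known, so the contrast of shares is not evidence about copper handling as a whole. Atp7a, a copper pump that supplies secreted enzymes and expels copper, ran from 8.76 to 8.98 in vehicle and from 9.47 to 9.91 in dexamethasone, without overlap. It rose by 0.84 (SE 0.07, adjusted p = 0.000114), or 1.78-fold, in 6 of 6 cultures. Slc31a2, a copper transporter of endosomes and lysosomes, rose by 0.18 (SE 0.05, adjusted p = 0.0355) with overlapping groups, a call lost under 8 of 16 other settings with adjusted p from 0.0168 to 0.140. Slc31a1, the copper importer of the cell surface, changed by 0.06 (adjusted p = 0.467).

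**Figure D5:**
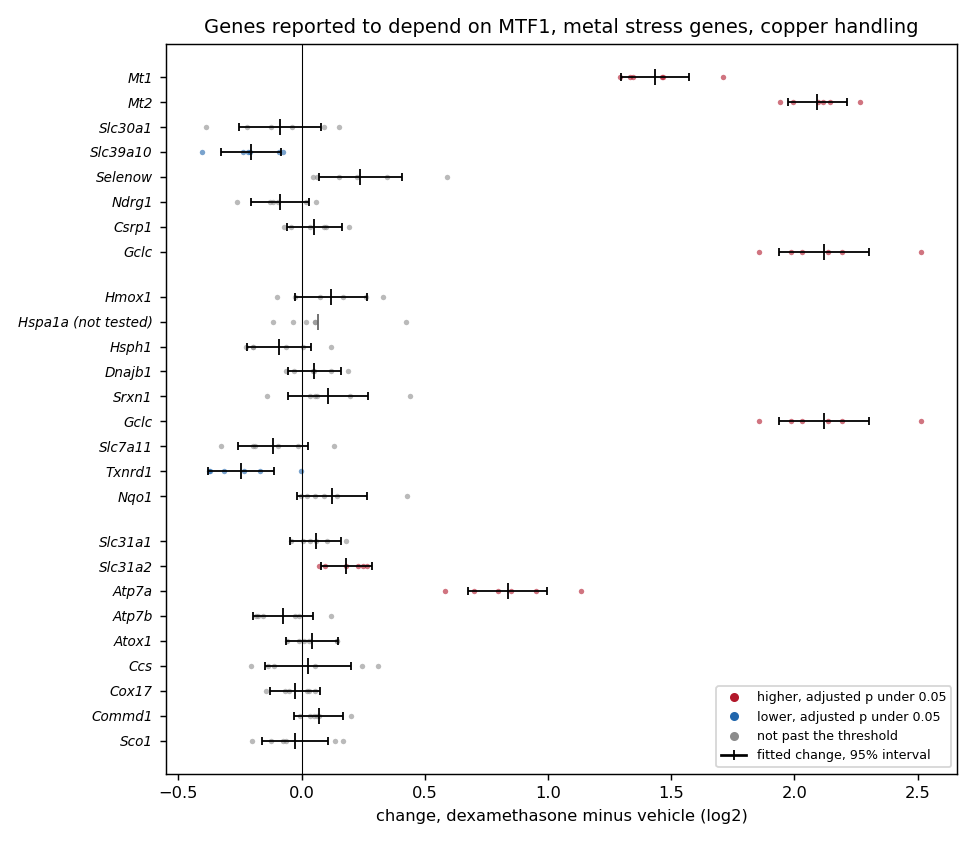
Change of genes reported to depend on MTF1, of metal and oxidative stress genes and of copper handling genes, dexamethasone minus vehicle on the log2 scale, with 1 point per culture and the fitted change with its 95% interval; Gclc belongs to the first and second block and is drawn in both. Gclc at 2.12 and Atp7a at 0.84 lie to the right with the metallothioneins, and Slc30a1 lies at -0.09.

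The genes most like Mt2 were those whose 6 changes had the smallest root mean square difference from its own. They were Zfp36l2, an RNA-binding protein gene (0.13), Cdc42ep2, an effector of the GTPase CDC42 (0.18), the sulfhydryl oxidase gene Qsox1 (0.20), the metalloproteinase gene Mmp19 (0.21) and the guanine deaminase gene Gda (0.21), each over 6 cultures. For Mt1 they were Pacs2 (0.10), Cracdl (0.11), Usp54 (0.12), Dcaf4 (0.13) and Tns1 (0.13). The same measure between Mt1 and Mt2 was 0.69, where the mean gap between their changes was 0.66. A small value reflects a like size of change. It does not by itself show that genes moved together from culture to culture.

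Within a treatment, arrays correlated with each other at r from 0.990 to 0.994. Of 10 megakaryocyte markers, 9 had a value and all 9 were brighter than the negative control median on every array. In dexamethasone 1 was higher (Gp9) and 1 lower (Tubb1), 22.2% of the 9, against 12% of all tested genes. Of 7 neutrophil markers 4 fell in dexamethasone (S100a8, S100a9, Ltf and Camp), a share of 57.1%, where 4.56% of all tested genes fell. The mean log2 level of the 7 ran from 7.33 to 8.61 over vehicle arrays and from 6.68 to 8.25 over dexamethasone arrays. Elane lay below the negative control median throughout. Ltf lay above it on 2 of 6 vehicle arrays and on no dexamethasone array. Of 6 mast cell and basophil markers, 5 were tested, Cpa3 and Gata2 rose and Mcpt8 fell, a share of 60% against 12% of all tested genes. The mean of the 6 ran from 6.20 to 6.35 and from 6.30 to 6.46, with Ms4a2, Fcer1a and Hdc under that median on every array. Of 7 monocyte and macrophage markers none passed in limma, and 1 was higher and 1 lower at an unadjusted p under 0.05, with means from 5.68 to 5.86 and from 5.59 to 5.95. Of 6 lymphocyte markers, 5 were tested and 1, Gzmb, fell, a share of 20%, and 3 lay under the negative control median on every array. The only tested erythroid marker of 5, Epor, did not pass. The part of other cells in the changes of the zinc genes was not tested.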

How the data were processed

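The deposited table holds 72688 probe sets on 12 arrays of 1 colour. Its log2 scale, as the authors deposited it, was inferred from a range of 2.07 to 19.93. Per the labels' protocols, 50 ng of RNA was amplified and labelled with biotin. The sources used here do not give the background correction, normalization, summarization or build. Values were used as deposited, since array medians lay between 5.57 and 5.67.

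Of the probe sets, 30604 had 1 gene symbol and 2146 several, and 22818 gene numbers matched RefSeq (GRCm38.p6), updating 827 symbols. A gene is represented by the probe set of highest mean across the 12 arrays, and was tested if above its array's 25th percentile on at least 6 arrays. Tests used lmFit and eBayes of limma 3.58.1 (R 4.3.3), with culture as a block because the treatment protocol states that cultures were divided, two-sided, with Benjamini-Hochberg adjustment over all 24265 genes and a threshold of 0.05. Deviations from group means correlated at 0.05 to 0.25 between arrays of the same culture (4 of 6 over 0.1), against a mean of -0.03 otherwise. Taking deviations within groups ties the second value to the first, so it adds no separate support for the pairing. The fit was tested on simulated data. The number of arrays limits the precision.

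The members and lists were chosen with earlier results of these data known. Named are all 10 members, Mt3 and Mt4, listed genes past the threshold and the 5 genes most like Mt1 and Mt2 each. Other listed genes that did not pass were picked as examples after their values were seen.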

Additional observations from a re-analysis of the deposited data

Results flagged for a closer look

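Among 51 sets of 6 values (vehicle levels, dexamethasone levels and changes of 17 named genes), 3 held a culture whose gap to the nearest other was a large part of the range, past Dixon's 95% critical value. Chance alone gives about 1 in 20 such sets. Slc39a6 in dexamethasone was 9.37 in culture 4, and 9.09 to 9.17 in the other cultures. Txnrd1 in dexamethasone was 8.67 in culture 6, and 8.98 to 9.15 in the others. Herpud1 in vehicle was 11.67 in culture 2, and 11.89 to 12.00 in the others.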

How the results depend on the processing

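Of the 10 members, 3 were higher under all 16 other settings, and 2 to 4 were lower. Under these settings the change of Mt2 ran from 2.02 to 2.12 and that of Mt1 from 1.37 to 1.46, and the calls of Mt1, Mt2, Mtf1, Slc30a5 and Slc39a6 held under each. The change of Slc30a7 turned to -0.021 after quantile normalization. With every probe set in the fit, 2 zinc handling genes were lower, and 807 genes were higher and 408 lower. Quantile normalization gave 1738 lower genes and centring on array medians gave 726, and higher genes made up 44.9% and 70.3% of calls there against 61.9% as deposited. Leaving out 1 culture gave 1164 to 1520 genes higher and 712 to 853 lower, with the lowest counts without cultures 3 (1164 and 714), 4 (1178 higher) and 6 (712 lower). Without 1 culture, Mt2 exceeded Mt1 by 0.63 to 0.74 with an exact permutation p of 0.0625, the smallest 5 pairs allow. With no replicate block, 2452 genes passed, the call of Slc39a10 was lost, no other call of a member changed, and the gap between Mt2 and Mt1 had an exact permutation p of 0.00216. Each member had 1 probe set, so averaging probe sets left its values as they were. Dim genes such as Slc39a14 and Mt4 limit what the array could show. Trying the same settings on Cbwd1, Gclc, Txnrd1, Slc31a2, Atp7a, Herpud1 and Cpne2 was chosen after seeing the data; the calls of Gclc, Atp7a, Herpud1 and Cpne2 held under all 16 and that of Cbwd1 under 15.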
